A study of Homo sapiens with 8 samples.

Results

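The genes described here are 35 neuronal and synaptic genes, chosen by symbol from textbook knowledge of neurons, with earlier results of these data known. They were followed in the deposited counts of sorted human microglia. All 35 were found, each under 1 Ensembl identifier, among the 78899 rows of the count table. The microglia, the resident macrophages of the brain, were derived from H1, an established human embryonic stem cell line, although other labels of the same samples call them derived from induced pluripotent cells. They carried a GFP label whose driver is not named in the labels used here. One group of 4 libraries came from mono-culture, in which the cells were fed IL-34 at 100 ng/mL and M-CSF at 10 ng/mL, both ligands of the CSF1 receptor, 3 times per week. The other group of 4 libraries came from tri-culture, which had medium changes at the same 3 times per week and no added cytokine. Those labels do not name the cells that share the tri-culture, and the effects of partner cells and of the cytokine supplement cannot be told apart in this design. All cultures were harvested 2 weeks after plating, and GFP-positive cells were recovered by fluorescence-activated sorting from 4 batches that the labels call independent, with 1 library per group in each batch.

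Neurons depend on a specialised cytoskeleton, in which tubulins, microtubule-binding proteins and neurofilaments build the axon and dendrites. At the synapse, vesicles filled with transmitter fuse with the presynaptic membrane, and receptors held by scaffold proteins receive the transmitter on the other side. Many of these genes are kept silent outside neurons, in part by the repressor REST, whereas some, among them regulators of microtubules and of protein turnover, are also used by other cell types.

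The promoters of 3 members are shown. SYN1 and GRIA2, almost or wholly without counts in mono-culture, are the members whose windows match the left arm of the element described next, and were chosen for that match. INA is shown beside them because it was abundant in mono-culture and fell in tri-culture. Of the 35 members, 26 had a promoter window of 300 bases (250 before to 50 after the transcription start) in the RefSeq table on GRCh38.p14. The bases printed are the part of 1 window before the first annotated exon base, 5′ to 3′ on the strand of the gene, and capitals mark the left and right arms of the RE1 element that REST is known to bind. The left arm, TTCAGCACC, was searched on both strands and was found in 0.376% of all 35116 windows, and the right arm, GGACAGC, in 6.03%. Both arms stood in 0.0683% of windows.
SYN1 (chrX:47619944-47620107, minus strand): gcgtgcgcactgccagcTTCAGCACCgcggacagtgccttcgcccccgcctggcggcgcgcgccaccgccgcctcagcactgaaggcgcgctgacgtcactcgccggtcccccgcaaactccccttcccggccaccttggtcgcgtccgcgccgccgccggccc
GRIA2 (chr4:157220369-157220618, plus strand): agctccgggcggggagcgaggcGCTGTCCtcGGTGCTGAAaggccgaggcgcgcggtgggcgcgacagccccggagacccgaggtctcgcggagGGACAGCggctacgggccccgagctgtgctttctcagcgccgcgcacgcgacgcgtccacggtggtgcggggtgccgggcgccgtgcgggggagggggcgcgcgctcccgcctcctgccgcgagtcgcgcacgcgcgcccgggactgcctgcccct
INA (chr10:103276888-103277137, plus strand): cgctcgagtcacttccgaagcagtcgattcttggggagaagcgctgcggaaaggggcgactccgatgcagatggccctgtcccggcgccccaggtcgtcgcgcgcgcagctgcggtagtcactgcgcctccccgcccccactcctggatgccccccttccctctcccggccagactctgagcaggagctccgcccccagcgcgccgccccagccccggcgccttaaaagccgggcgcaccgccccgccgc
The left arm was matched in the windows of SYN1 and GRIA2 alone among the members, 233 bases before the start of SYN1 on its own strand and 219 bases before that of GRIA2 on the opposite strand. The right arm was matched in windows of GAD2, GAP43, GRIA2 and RBFOX3. In GRIA2 it occurs on the gene's strand, 156 bases before the start, and on the opposite strand, 228 bases before it. Neither arm is among the letters of the INA window. These matches describe letters in these windows and were not tested as binding sites.

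Library totals ran from 17037481 to 33363972 counts. Of 16249 genes that passed a filter on low counts, 4373 (26.9%) differed between the cultures by edgeR's quasi-likelihood test at a Benjamini-Hochberg adjusted p under 0.05. Those higher in tri-culture were 2261 (13.9%) and those lower were 2112 (13.0%), against 2829 and 1663 with library size as the only scaling. As to the labelled cell type, all 15 microglia and macrophage markers passed the filter, and their summed level ran from 5192 to 6328 CPM in mono-culture libraries and from 6889 to 8610 CPM in tri-culture libraries (CPM, counts per 1000000 counts of the scaled library), with 5 called higher and 2 lower, although CD68 had just 60 and 29 counts over the groups. Markers of other cell types differed between the same libraries. Of 12 astrocyte markers, 11 were tested, 8 of them higher and 1 lower, although 3 of the 8 had 0 or 1 count in mono-culture and so passed the filter through tri-culture alone, and their summed level was 222 to 296 CPM in mono-culture and 619 to 751 CPM in tri-culture. GFAP, the astrocyte intermediate filament, stood at 0.296 ± 0.153 and 167 ± 81.1 CPM (SD, n = 4 each). S100B and SLC1A3 made up most of the astrocyte sum in mono-culture, at 124 ± 22.5 and 109 ± 26.5 CPM. In tri-culture S100B stood at 359 ± 133 CPM and SLC1A3 at 81.8 ± 11.6 CPM. Of 8 neural progenitor markers, 5 were tested, 4 higher and 1 lower, with sums of 57.5 to 115 and 40.1 to 78.5 CPM. The higher ones had 0 to 12 counts in mono-culture and passed through tri-culture alone, SOX2 being at 0, and NES made up nearly all of the mono-culture sum. Of 9 oligodendrocyte markers, 6 were tested, 3 higher and 1 lower, with sums of 154 to 185 and 211 to 295 CPM, and MOG had no count in any library. Pluripotency markers summed to at most 0.360 CPM.

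The members were sorted into 3 sets by their mono-culture counts. A first set of 17 had at most 3 counts over all mono-culture libraries, 11 counts together, against 1854 in tri-culture. This set was picked for low mono-culture counts, so a higher sum in tri-culture was favoured by that choice. Of the 17, 5 passed the filter, beside 204 of all 16249 tested genes with at most 3 counts in mono-culture. A second set of 11 stood at 1 CPM or more in mono-culture, with 55471 and 34914 counts in the 2 groups. The remaining 7 lay between, with 136 and 291 counts. In a bulk sample, fewer cells of a type and less RNA per cell cannot be told apart, and this holds for every level below. The RNA of any partner cell carried through the sort would also be counted, and its part in these results was not tested.

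Of the 35 members, 16 passed the filter, of which 6 were higher, 4 lower and 6 did not pass the test, with a median log2 fold change of 0.16 against 0.02 over all tested genes. The higher ones other than ELAVL4 were STMN2, KIF5C, NEFL, GAP43 and GRIN2B, which passed the filter through their tri-culture counts alone and so had to differ. The lower ones were STMN1, INA, SYT1 and SLC17A7, and all 4 came from the 11 members at 1 CPM or more in mono-culture. SLC17A7 passed the filter through its mono-culture counts alone, which favoured a decrease. With no filter, 34 members entered the test, of which 16 were higher and 5 lower, where 6.83% and 5.73% of all 39751 genes with a count were. By DESeq2, 15 of these 16 and the same 5 were called. Among the 16 tested members, all tri-culture libraries lay above all mono-culture libraries in 6 and below them in 4, beside 15.3% and 14.1% of the 16249 tested genes. Over all 35 members, most of which did not pass the filter on which those shares rest, the counts were 17 and 4. The members detected with at least 1 count numbered 16 to 21 in the mono-culture libraries and 30 to 34 in the tri-culture libraries.

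**Figure D1:**
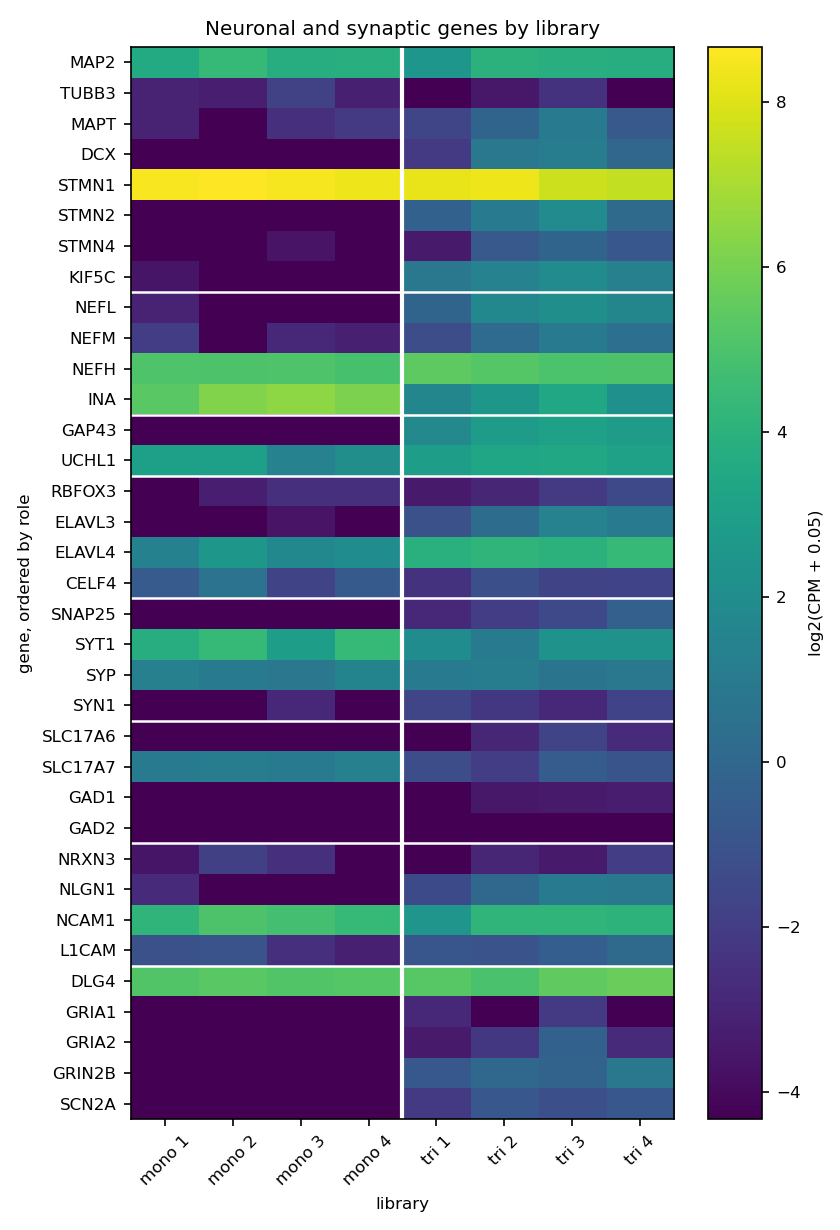
Level of each of the 35 members (rows, grouped by role, white lines between groups) in each of the 8 libraries (columns), as log2(CPM + 0.05) on a colour scale. Dark cells at the left mark the 17 members with at most 3 counts over mono-culture, and the rows of STMN1, INA, NEFH and DLG4 are bright in all mono-culture libraries.

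Among the genes of microtubules and their regulators, the direction split within one family, the stathmins, which bind tubulin. STMN2, a stathmin of growing and regenerating axons, had no count in mono-culture. It stood at 0.781, 1.96, 3.85 and 1.09 CPM in tri-culture libraries 1 to 4. All tri-culture libraries therefore lay above all mono-culture libraries, with the third highest and the first lowest. The difference was at least 62.4-fold against a floor of 3 counts over the mono-culture group (0.0308 CPM), and it passed the test (adjusted p = 0.000247). STMN4, another stathmin of neurons, had 1 count in mono-culture and 44 in tri-culture, a ratio of 48.9 (95% interval 8.34 to 1976, for counting error only).

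STMN1, the stathmin that dividing cells of many types express, went the other way. Its levels were 373, 407, 356 and 324 CPM in mono-culture libraries 1 to 4 and 300.5, 323, 203 and 177 CPM in tri-culture libraries 1 to 4. The groups did not overlap, but tri-culture library 2 and mono-culture library 4 were almost level, and the decrease was larger in batches 3 and 4 (1.75-fold and 1.83-fold) than in batches 1 and 2 (1.24-fold and 1.26-fold). The mean was 1.45-fold lower (log2 fold change -0.54 ± 0.18 SE, adjusted p = 0.0418). This call was lost without any single mono-culture library (adjusted p from 0.0538 to 0.116), without tri-culture library 3 or 4 (0.116 and 0.0938), without batch 1, 3 or 4 (from 0.0520 to 0.153) and with upper quartile scaling (0.0569). Of 6 proliferation markers, 4 were lower in the same libraries, with a summed level of 607 to 749 CPM in mono-culture and 258 to 403 CPM in tri-culture, and their part in the STMN1 result was not tested.

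KIF5C, a kinesin motor that carries cargo along axons (ENSG00000168280, GRCh38 chromosome 2, 148875250 to 149026759, plus strand), had 1 count in mono-culture, in library 1. In tri-culture libraries 1 to 4 it stood at 1.79, 2.69, 3.85 and 2.44 CPM, each far above mono-culture, with library 3 highest. The ratio of summed counts, scaled by library size, was 264 (46.9 to 10455, adjusted p = 3.38e-06). DCX, doublecortin, which marks migrating young neurons, had no count in mono-culture and 0.184, 1.79, 2.13 and 0.935 CPM in tri-culture libraries 1 to 4. It was at least 41.0-fold higher and was called with no filter on low counts (adjusted p = 4.13e-13). MAPT, which encodes the axonal protein tau, stood at 0.0685, 0, 0.119 and 0.180 CPM in mono-culture and at 0.276, 0.856, 1.90 and 0.572 CPM in tri-culture. The 2 groups were separate, at a 9.81-fold higher mean (adjusted p with no filter = 7.73e-05).

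The remaining genes of this role showed no called difference. MAP2, the microtubule-associated protein of dendrites (ENSG00000078018, chromosome 2, 209424058 to 209734118, plus strand), was at 12.3, 21.1, 13.7 and 14.1 CPM in mono-culture and at 5.65, 15.9, 13.9 and 13.5 CPM in tri-culture. Its groups overlapped, with tri-culture library 1 apart below the rest (log2 fold change -0.32 ± 0.27 SE, adjusted p = 0.446). TUBB3, the beta-tubulin most used as a neuronal label, had 12 counts over mono-culture and 4 over tri-culture, a ratio of 0.371 (0.0871 to 1.22), so no difference was detectable at this depth. In GENCODE 29, 35.8% of its exon bases also lie in another gene of the same strand, and how such reads were counted is not given in the sources used here.

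The 4 neuronal intermediate filament genes differed in direction, although their proteins assemble together in axons. NEFL, the neurofilament light chain, had 2 counts in mono-culture, both in library 1, and stood at 0.873, 3.30, 4.40 and 3.12 CPM in tri-culture libraries 1 to 4. Its groups did not overlap, and tri-culture library 1 was again the lowest (ratio 143, interval 39.2 to 1186, adjusted p = 3.51e-05). NEFM, the medium chain, was at 0.205, 0, 0.0895 and 0.0600 CPM in mono-culture and at 0.367, 1.10, 2.04 and 1.30 CPM in tri-culture. That was 13.5-fold higher on average with no overlap (adjusted p with no filter = 1.24e-06). Exons on the opposite strand cover 38.9% of the exon bases of NEFM and 11.3% of those of NEFL, and the use of strand in counting is not given in the sources used here, so the NEFM value is uncertain.

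NEFH, the heavy chain, was abundant in both cultures, and exons on the opposite strand cover 8.8% of its exon bases. Its levels were 34.3, 33.4, 34.2 and 29.2 CPM in mono-culture and 43.5, 38.0, 32.2 and 32.5 CPM in tri-culture. The groups overlapped and the difference did not pass (log2 fold change 0.16 ± 0.13 SE, adjusted p = 0.412). INA, internexin alpha, which joins neurofilaments in developing neurons (ENSG00000148798, chromosome 10, 103277163 to 103290351, plus strand), was the member with the largest called decrease. It stood at 39.9, 73.7, 89.1 and 68.8 CPM in mono-culture libraries 1 to 4 and at 3.03, 5.87, 10.5 and 4.52 CPM in tri-culture libraries 1 to 4. Every tri-culture library was far below every mono-culture library, and the decrease was between 8.47-fold and 15.2-fold in the 4 batches. The mean was 11.3-fold lower (log2 fold change -3.50 ± 0.34 SE, adjusted p = 7.88e-06). Within both groups the third library was highest and the first lowest. NES, another intermediate filament gene, known from neural progenitors, was lower in the same libraries, at 92.2 ± 24.6 and 28.9 ± 5.10 CPM (SD, n = 4 each, adjusted p = 4.11e-05).

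**Figure D2:**
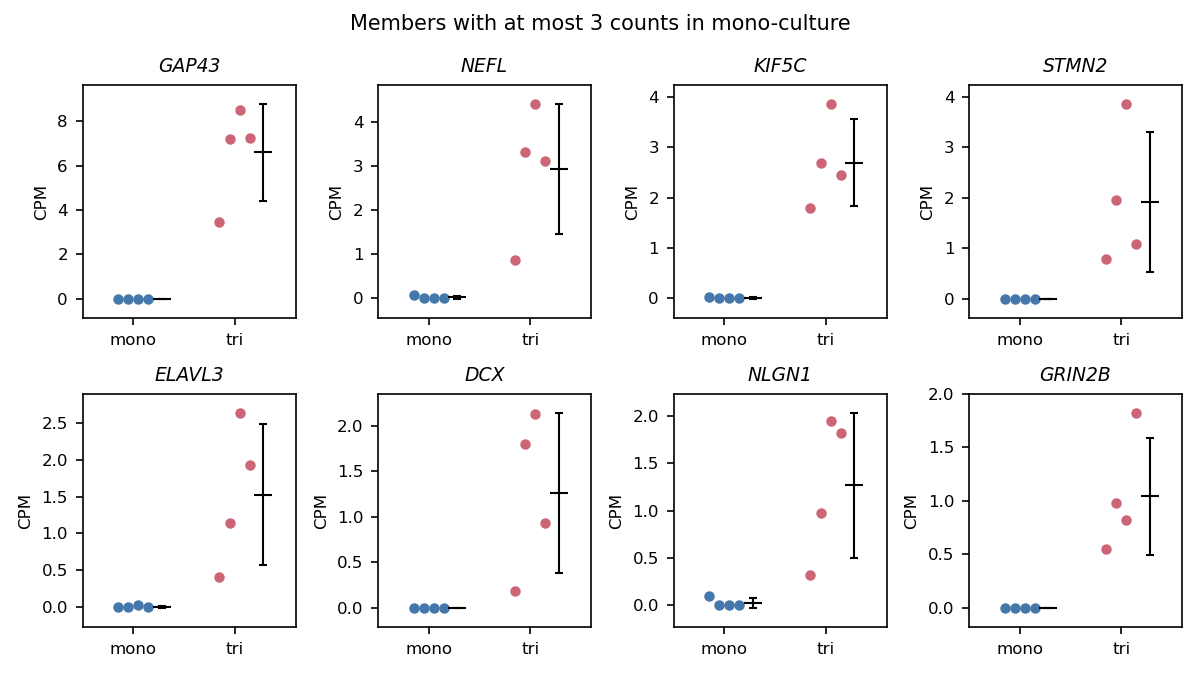
CPM of 8 of the members with at most 3 counts in mono-culture, with 1 point per library (libraries 1 to 4 from left to right, blue for mono-culture, red for tri-culture) and the mean and SD of each group in black; the scale differs between panels. GAP43 reaches 8.48 CPM, and tri-culture library 3 is the highest in 7 of the 8 genes and tri-culture library 1 the lowest tri-culture library in all 8.

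GAP43, a protein of growth cones and regenerating axons (ENSG00000172020, chromosome 3, 115623324 to 115721490, plus strand), was the most abundant of the members without a count in mono-culture. It had 578 counts in tri-culture, at 3.44, 7.22, 8.48 and 7.22 CPM in libraries 1 to 4. It was at least 214-fold higher against the floor (adjusted p = 3.94e-06). UCHL1, a ubiquitin hydrolase abundant in neurons, was present in both cultures, at 7.97, 7.94, 2.63 and 4.26 CPM in mono-culture and at 7.58, 9.75, 10.5 and 8.52 CPM in tri-culture. The groups overlapped, and batch 1 did not share the direction of the other batches. The difference did not pass (log2 fold change 0.68 ± 0.30 SE, adjusted p = 0.126), but was called with no filter (adjusted p = 0.0324, from 0.0324 to 0.424 over the alternatives).

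The neuronal RNA-binding proteins, which steer splicing and stability of neuronal transcripts, held ELAVL4, the one member of the 11 at 1 CPM or more in mono-culture that was called higher with the filter. ELAVL4 (ENSG00000162374, chromosome 1, 50048014 to 50203786, plus strand) stood at 2.57, 5.88, 3.31 and 3.96 CPM in mono-culture libraries 1 to 4 and at 15.4, 18.0, 16.4 and 20.5 CPM in tri-culture. The lowest tri-culture library was well above the highest mono-culture library, and the increase ran from 3.06-fold to 5.99-fold over the batches. The mean was 4.47-fold higher (log2 fold change 2.18 ± 0.23 SE, adjusted p = 1.64e-05). Its relative ELAVL3 had 1 count in mono-culture and stood at 0.413, 1.14, 2.63 and 1.92 CPM in tri-culture, a ratio of 147 (25.9 to 5842, adjusted p with no filter = 1.06e-13). RBFOX3, which encodes the nuclear antigen NeuN of mature neurons, had 7 and 13 counts, a ratio of 2.07 (0.766 to 6.11). CELF4 had 64 and 24 counts, with overlapping groups, and was not called with no filter (adjusted p = 0.134).

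Genes of the synaptic vesicle and of release moved in both directions. SYT1, the calcium sensor of fast release (ENSG00000067715, chromosome 12, 78863993 to 79452008, plus strand), stood at 13.7, 20.8, 7.76 and 20.5 CPM in mono-culture and at 3.95, 2.08, 4.99 and 4.99 CPM in tri-culture. The groups did not overlap, but the decrease differed between batches, from 1.55-fold in batch 3 to 9.98-fold in batch 2. Its mean was 3.92-fold lower (log2 fold change -1.97 ± 0.33 SE, adjusted p = 0.000612). SNAP25, the membrane SNARE with which SYT1 acts, had no count in mono-culture and 28 in tri-culture, at 0.0919, 0.204, 0.317 and 0.727 CPM. It was at least 10.9-fold higher and was called with no filter (adjusted p = 0.000567). SYN1, which tethers vesicles and whose promoter window is printed above, had 3 and 17 counts, a ratio of 6.30 (1.82 to 33.6), and was not called with no filter (adjusted p = 0.180).

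SYP, synaptophysin of the vesicle membrane, was low in both cultures. It stood at 2.50, 2.00, 1.70 and 2.82 CPM in mono-culture and at 1.98, 2.16, 1.54 and 1.77 CPM in tri-culture. The ranges overlapped and no difference passed (log2 fold change -0.27 ± 0.28 SE, adjusted p = 0.537).

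Of the genes that make or load transmitter, SLC17A7 alone passed the filter. It encodes a vesicular glutamate transporter (ENSG00000104888, chromosome 19, 49429401 to 49442360, minus strand) and stood at 2.05, 2.11, 2.00 and 2.46 CPM in mono-culture. In tri-culture it was at 0.367, 0.204, 0.635 and 0.468 CPM. Every tri-culture library was below every mono-culture library, at 5 to 14 counts each against 38 to 67, and the mean was 5.15-fold lower (log2 fold change -2.36 ± 0.38 SE, adjusted p = 0.000445). SLC17A7 passed the filter through mono-culture alone, which favoured a decrease. Another vesicular glutamate transporter, SLC17A6, had no count in mono-culture and 10 in tri-culture, at least 3.71-fold higher, and was not called with no filter (adjusted p = 0.0739). The enzymes of GABA synthesis were at or under the floor of 3 counts: GAD1 had 0 and 3 counts, and GAD2 had none in any library, which allows up to 0.0308 CPM in the mono-culture group and up to 0.0342 CPM in the tri-culture group.

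**Figure D3:**
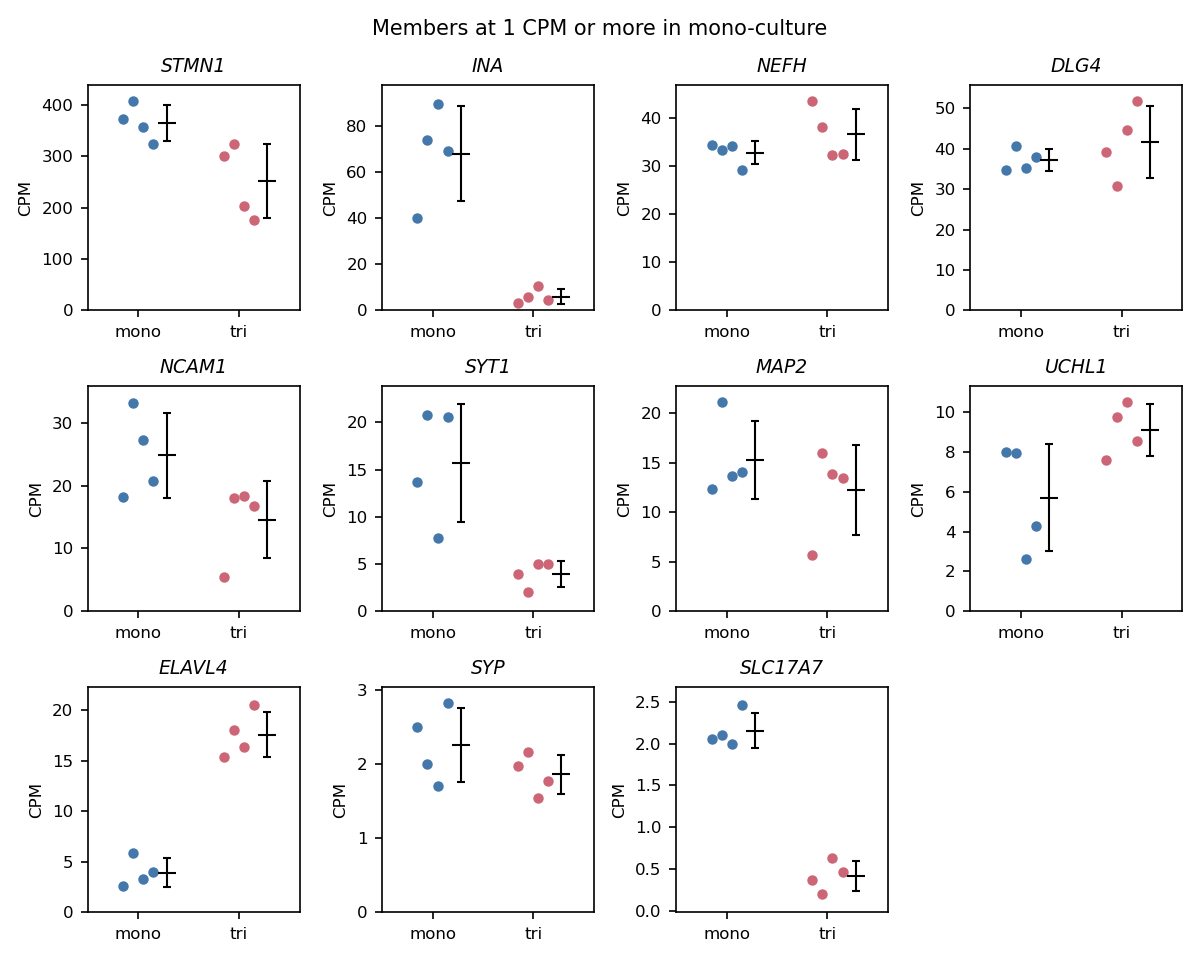
CPM of the 11 members at 1 CPM or more in mono-culture, with 1 point per library (libraries 1 to 4 from left to right, blue for mono-culture, red for tri-culture) and the mean and SD of each group in black; the scale differs between panels. The groups are separate in STMN1, INA, SYT1, ELAVL4 and SLC17A7 and overlap in the other 6.

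Adhesion molecules of the synapse and axon gave mixed values. NLGN1, the postsynaptic partner of neurexins, had 3 counts in mono-culture, all in library 1, and stood at 0.322, 0.979, 1.95 and 1.82 CPM in tri-culture. The groups were separate, with a ratio of 40.4 (13.5 to 199, adjusted p with no filter = 6.02e-10). NRXN3, a neurexin, had 9 and 7 counts, a ratio of 0.865 (0.274 to 2.61), and no difference was detectable at this depth. L1CAM, an axonal adhesion molecule, had 25 and 58 counts. Its tri-culture libraries lay above its mono-culture libraries, from 0.449 to 1.09 CPM against 0.0600 to 0.444 CPM, but it was not called with no filter (adjusted p = 0.186).

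NCAM1, a neural cell adhesion molecule also found on other cell types (ENSG00000149294, chromosome 11, 112961247 to 113278436, plus strand), was a member whose call depended on the batches and on other settings. It stood at 18.2, 33.1, 27.2 and 20.7 CPM in mono-culture libraries 1 to 4 and at 5.42, 18.0, 18.3 and 16.7 CPM in tri-culture libraries 1 to 4. Tri-culture was lower in all 4 batches, from 1.24-fold in batch 4 to 3.36-fold in batch 1, while the groups overlapped through tri-culture library 3 and mono-culture library 1. Without a block the 1.70-fold lower mean did not pass (log2 fold change -0.76 ± 0.31 SE, adjusted p = 0.0907). A fit with the batch as a replicate block did call it lower, at a log2 fold change of -0.86 and an adjusted p of 0.00540. So did the test with no filter (0.000568), DESeq2 (0.0469) and the fit without batch 1 (0.0271), within a range of 0.000568 to 0.245 over all alternatives.

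Among receptors, scaffold and channel, all 4 membrane proteins were without a count in mono-culture, and the scaffold was abundant in both cultures. GRIN2B, the NMDA receptor subunit of young neurons (ENSG00000273079, chromosome 12, 13437942 to 13981957, minus strand), stood at 0.551, 0.979, 0.816 and 1.82 CPM in tri-culture. It was at least 33.8-fold higher (adjusted p = 0.000273), and the call was lost on the deposited length-scaled signal with a pseudocount of 1 (limma, adjusted p = 0.163), a setting that flattens low values. SCN2A, a sodium channel of the axon, had 36 counts in tri-culture and was at least 13.3-fold higher (adjusted p with no filter = 7.07e-05).

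The AMPA receptor subunits were rarer. GRIA2, whose promoter window is printed above, had 1, 4, 17 and 2 counts in tri-culture libraries 1 to 4, so library 3 held most of its 24 counts, and it was at least 8.80-fold higher (adjusted p with no filter = 0.00202). GRIA1 had 6 counts (exact 95% Poisson interval 2.20 to 13.1), in tri-culture libraries 1 and 3, an interval that reaches below the floor of 3, and was not called (adjusted p with no filter = 0.166). DLG4, which encodes the postsynaptic scaffold PSD-95, stood at 34.8, 40.7, 35.2 and 37.9 CPM in mono-culture and at 39.3, 30.7, 44.6 and 51.8 CPM in tri-culture. The tri-culture values enclosed the mono-culture values, and the difference did not pass (log2 fold change 0.16 ± 0.15 SE, adjusted p = 0.479).

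**Figure D4:**
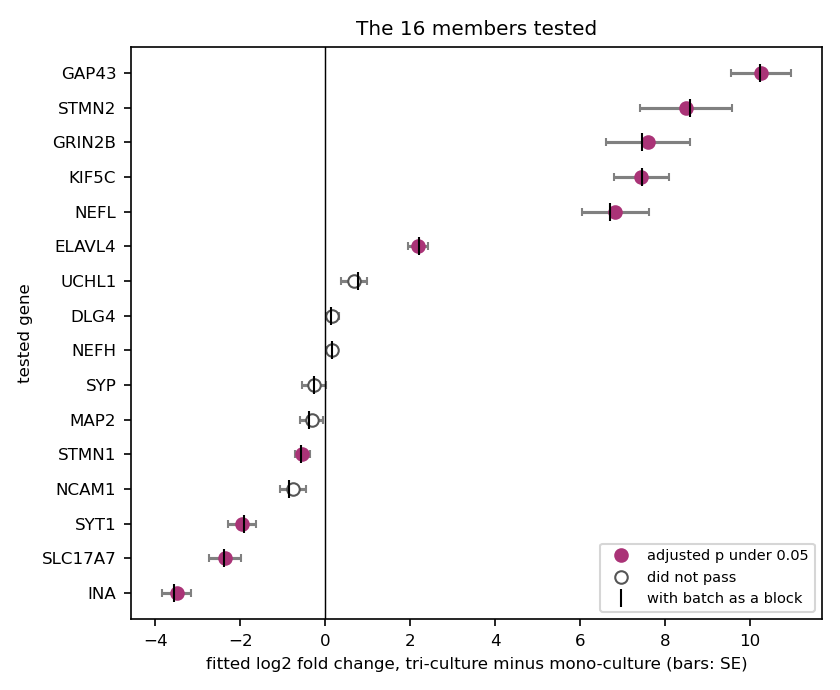
Fitted log2 fold change (tri-culture minus mono-culture) of the 16 tested members, with bars of 1 SE; filled points passed at an adjusted p under 0.05, open points did not, and black ticks give the fit with the batch as a block. GAP43, STMN2, GRIN2B, KIF5C and NEFL, with 0 to 2 counts in mono-culture, have values that depend on the prior count of the fit, whereas ELAVL4 at 2.18 and INA at -3.50 rest on counts in both groups.

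The members with at most 3 mono-culture counts were mostly low in the same tri-culture library. In 14 members with at most 3 counts in mono-culture and at least 10 in tri-culture, tri-culture library 1 was the lowest in 13 and library 3 the highest in 10. SYN1 was lowest in library 3 and highest in library 1, SNAP25 and GRIN2B were highest in library 4, and SCN2A was highest in library 2. The summed level of the 17 members with at most 3 mono-culture counts was 9.09, 21.8, 31.1 and 22.7 CPM in tri-culture libraries 1 to 4, and at most 0.205 CPM in any mono-culture library. These libraries held 22305977, 24491765, 20791239 and 17602010 counts in the same order. The astrocyte markers summed to 686, 751, 724 and 619 CPM in tri-culture libraries 1 to 4. Of these, S100B stood at 507, 436, 253 and 242 CPM and GFAP at 63.2, 151, 254 and 201 CPM. GFAP, AQP4, SLC1A2, SLC1A3, ALDH1L1, GJA1, SOX9 and SLC4A4 were each lowest in library 1 and highest in library 3. S100B, FABP7, ALDOC and GJB6 did not share that order. The microglia and macrophage markers summed to 8610, 6889, 7687 and 7620 CPM in tri-culture libraries 1 to 4. The 7 mesenchymal markers, 3 of them tested, summed to 362, 10.6, 361 and 124 CPM there and to at most 33.1 CPM in mono-culture, and COL3A1, the largest of them, missed the threshold (adjusted p = 0.0505) but was called higher with the batch as a block (2.63e-05). The part of these markers in the values of the members was not tested.

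**Figure D5:**
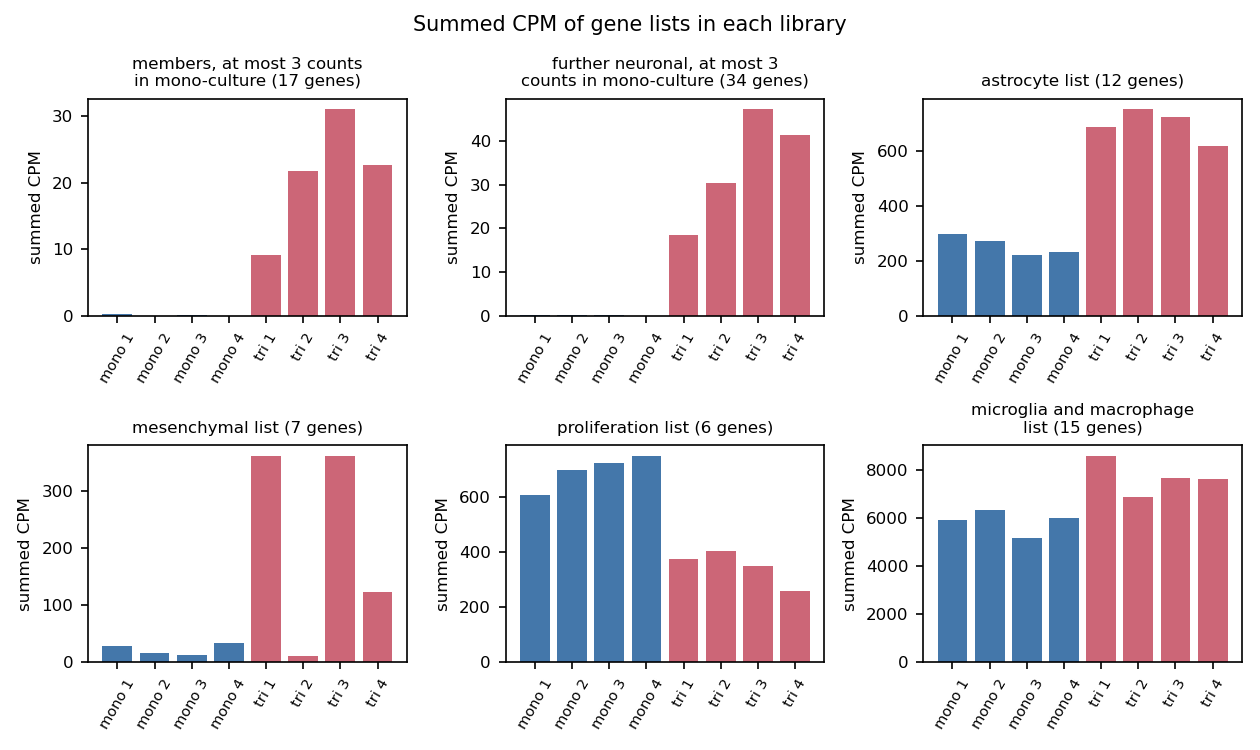
Summed CPM of 6 gene lists in each library (bars, from 0, blue for mono-culture and red for tri-culture; the scale differs between panels). The 17 members and 34 further neuronal genes with at most 3 counts in mono-culture are lowest in tri-culture library 1. They are highest in library 3. The mesenchymal list is high in libraries 1 and 3. The astrocyte list is highest in library 2, but its single genes differ. GFAP is lowest in tri-culture library 1 and highest in library 3, and S100B is highest in library 1.

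Levels of different members were compared on the deposited length-scaled signal, as group means. In mono-culture the order was STMN1 at 177, INA at 74.7, NEFH at 31.0 and DLG4 at 13.0, each apart from the one before it over the 4 libraries. UCHL1 at 8.84, NCAM1 at 6.99, SYT1 at 5.34 and MAP2 at 4.23 followed, each overlapping the one before it. In tri-culture STMN1 at 123 and NEFH at 34.8 were separate from their neighbours below. DLG4 at 14.6, UCHL1 at 14.2, GAP43 at 12.5, ELAVL4 at 7.58 and INA at 6.66 formed a chain in which each overlapped the next. GAP43 thus held rank 5 of the 35 in tri-culture, and INA went from rank 2 to rank 7. The signals of SNAP25 and KIF5C imply lengths 6.20 and 3.54 times the usual ratio to their GENCODE 29 exon length, so their signals of 0.0573 and 0.294 in tri-culture are low for their counts.

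A second list of 93 further neuronal genes placed the members within the wider set. Of these, 43 passed the filter, of which 24 were higher, 3 lower and 16 did not pass, and 25 of the 93 had no count in mono-culture. Over all tested genes 13.9% were higher and 13.0% lower. The median log2 fold change of the 43 was 1.22, against 0.02 over all tested genes, but many passed the filter through tri-culture alone. With no filter, 39 of 89 were higher and 4 lower, beside 6.83% and 5.73% of all genes with a count. The cytoskeleton and transport genes held 11 higher and 1 lower of 15 tested, the presynaptic genes 4 higher of 11, the postsynaptic genes 2 higher and 1 lower of 6, and the adhesion genes 3 higher and 1 lower of 5. Both tested channel genes and both tested transcription and RNA-binding genes were higher. The tested secretory genes were SCG3 and ENO2, at log2 fold changes of 0.36 and -0.59 (adjusted p = 0.550 and 0.0945).

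The further genes with the smallest adjusted p were mostly of the cytoskeleton. MAP1B, a microtubule-associated protein of growing axons, was at 0.207 ± 0.124 CPM (SD, n = 4) in mono-culture against 21.4 ± 7.39 CPM (SD, n = 4) in tri-culture, 103-fold higher (log2 fold change 6.66 ± 0.38 SE, adjusted p = 1.08e-07). DPYSL3, a collapsin response mediator, was at 0.925 ± 0.335 and 48.0 ± 18.4 CPM, 51.9-fold higher. Its relative DPYSL5 had 1 and 347 counts, a ratio of 386 (68.8 to 15287). KIF1A, an axonal kinesin, and POU3F2, a transcription factor of neurons and neural progenitors, had no count in mono-culture and were at least 261-fold and 159.7-fold higher. MAP1B, DPYSL5, KIF1A and POU3F2 passed the filter through tri-culture alone and so had to lie higher in it. STMN3, also a stathmin, was 12.7-fold higher, so that STMN1 alone of the 4 stathmins was called lower.

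The 3 further genes called lower were all well counted in mono-culture, and CNTNAP2 passed the filter through mono-culture alone, which favoured a decrease. SHANK3, a postsynaptic scaffold, stood at 14.3 ± 2.44 and 1.56 ± 0.321 CPM, 9.17-fold lower (log2 fold change -3.19 ± 0.21 SE, adjusted p = 3.50e-07). TUBA1A, an alpha-tubulin, was at 617 ± 119 and 325 ± 27.0 CPM, and CNTNAP2, an adhesion molecule of the neurexin family, at 1.19 ± 0.295 and 0.251 ± 0.175 CPM. No count of the neuronal transcription factor genes NEUROD1, NEUROD6 and NEUROG2 or of the GABA transporter gene SLC32A1 was present in any library. Of 13 members taken as defining markers of neurons, 5 were tested. ELAVL4 was higher and SYT1 was lower. STMN2 and NEFL, also higher, passed the filter through tri-culture alone, and SLC17A7, also lower, through mono-culture alone. Over all tested genes 13.9% were higher and 13.0% lower. The summed level of the 13 markers, most of it from SYT1 and ELAVL4, was 13.3 to 28.8 CPM in mono-culture and 22.5 to 37.9 CPM in tri-culture.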

How the data were processed

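Total RNA of GFP-sorted microglia was sequenced in bulk, with 4 libraries per group. Each deposited count is a whole number of reads assigned to a gene. HISAT2 2.1.0, featureCounts 2.12.3 and GRCh38 are named in the submitters' processing notes, with no role given. Whether strand was used, which annotation was counted and how overlapping genes were handled is not given in the sources used here. The other deposited table, named as TPM by the authors, was treated as a length-scaled signal and used to compare genes.

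The members and the lists were chosen with earlier results of these data known. Symbols were matched to 42163 of 78899 rows, to 35 of 35 members and to 93 of 93 further genes, and GENCODE 29 gave positions and overlaps. Genes were filtered with filterByExpr (minimum count 10, minimum total 15), scaled with TMM and fitted on the group in edgeR 4.0.16 under R 4.3.3 (robust quasi-likelihood F test), with Benjamini-Hochberg adjustment over all genes tested and a threshold of 0.05. Standard errors were approximated from the log2 fold change and F. The test was checked on simulated counts, with 50 genes changed at each size. It recovered 15 of them at 1.5-fold, 24 at 2-fold, 46 at 4-fold and 47 at 8-fold, and called 9 unchanged genes. A difference that did not pass is therefore not shown to be absent. CPM use the TMM-scaled library. A floor of 3 counts over the group stands in for mono-culture where a member has no count there, and a member with 1 to 3 counts has a ratio of summed counts, scaled by library size, with an exact 95% interval. Both cover counting error alone, and a bound against the floor does not include the counting error of tri-culture.

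Every tested member is named with its value in each library, and other members by their counts. Of the further genes, up to 6 called in each direction with the smallest adjusted p are named. Genes named beyond this were chosen after their values were seen.

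The labels give the libraries batch numbers shared between groups, which pair them. The deviations of paired libraries from their group means had correlations of 0.204, 0.144, 0.278 and 0.0863, and in batches 2 and 3 a library of another batch correlated better (0.243 and 0.357). No 2 replicates of a group agreed within sampling noise (chi-square over its degrees of freedom, 9.60 to 68.6). The p-values reflect spread among these batches. Alternatives tried were other scaling, other filters, DESeq2 1.42.0, limma-trend 3.58.1 on the deposited signal, the batch block, protein-coding genes, and each library or batch left out.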

Additional observations from a re-analysis of the deposited data

Results flagged for a closer look

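In 45 groups of 4 libraries with at least 10 counts of a member, the gap between the highest or lowest library and its nearest neighbour, divided by the range of CPM, was set against Dixon's 95% critical value for 4, which chance passes in about 1 of 20 groups. It was passed in 3 of the 45. In mono-culture, TUBB3 was high in library 3, at 0.239 CPM (8 counts) against 0.0685, 0.0555 and 0.0600 CPM in libraries 1, 2 and 4, a ratio of 0.929. In tri-culture, NCAM1 was low in library 1, at 5.42 CPM against 18.0, 18.3 and 16.7 CPM in libraries 2 to 4, a ratio of 0.876. GRIA2 was high in tri-culture library 3, at 0.771 CPM (17 counts) against 0.0459, 0.163 and 0.104 CPM in libraries 1, 2 and 4, a ratio of 0.838.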

How the results depend on the processing

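The count of members called higher, 6 with the filter, was 16 with no filter, 15 by DESeq2 and 3 with a filter of 1 CPM in 4 libraries, settings that change how many low-count members enter the test. Among the further neuronal genes, 24 with the filter, 39 were higher with no filter and 37 by DESeq2. With 1 library or batch left out, members called higher were 6 to 12, members called lower 3 to 4, further genes called higher 21 to 30 and further genes called lower 3 to 5. The members called higher were 12 without any 1 mono-culture library, without tri-culture library 1 and without batch 1, where 22 to 24 members entered the test, since each such run filtered the genes anew. The further genes called lower were 5 without tri-culture library 2 or 3. With the replicate block, 6 members were higher and 5 lower, NCAM1 being added, and 23 further genes were higher and 4 lower; no other member's call changed. Of 349 recomputed values of single members, 333 kept direction and side of the threshold, 11 lost the call (STMN1 in 10 settings, GRIN2B in 1), 5 gained it (NCAM1, UCHL1) and 0 reversed. Summing all identifiers of a symbol could not be run as an alternative, since each member has 1. Depth limits the rarest members: the counting interval of the tri-culture to mono-culture ratio was 0.0871 to 1.22 for TUBB3 and 0.274 to 2.61 for NRXN3, and GAD1 and GAD2 stayed at or under the floor.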

Other observations

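Further neuronal genes named here were chosen after their values were seen. KCNQ3, a potassium channel gene, was higher in tri-culture. It stood at 15.7 ± 5.68 and 111 ± 38.3 CPM (SD, n = 4 each; edgeR, adjusted p = 1.85e-05), with no overlap, and was already well counted in mono-culture. HOMER1, a postsynaptic scaffold, was 2.33-fold higher, at 4.01 ± 0.517 and 9.34 ± 1.82 CPM (adjusted p = 0.000482), whereas the scaffold SHANK3 was lower.

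Some further genes were well counted in both cultures without a called difference. VAMP2, a vesicle SNARE, stood at 23.4 ± 2.70 and 24.8 ± 5.64 CPM (adjusted p = 0.763). The cytoskeletal genes DPYSL2 (223 ± 14.2 and 228 ± 38.3 CPM) and KIF3C (30.8 ± 6.27 and 30.7 ± 5.35 CPM) were likewise not called, at adjusted p = 0.896 and 0.979. SV2A, a vesicle glycoprotein, was 21.4-fold higher, at 0.0992 ± 0.117 and 2.13 ± 0.848 CPM (adjusted p = 0.000261). It passed the filter through tri-culture alone and so had to lie higher in it.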
